A study of Mus musculus with 26 samples.

Results

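The Schlafen genes are a mouse gene family clustered on chromosome 11, and 7 members were measured here out of 18193 genes with a probe set of their own. The members are Slfn1, Slfn2, Slfn3, Slfn4, Slfn5, Slfn8 and Slfn9, taken by symbol. Where several probe sets named only that gene, the brightest on average over the 26 Affymetrix arrays stood for it. The family was picked because Slfn8 lay near the bottom of the scale in every group but wild type, so the level of Slfn8 by genotype is a description here and carries no test. No value of the other 6 members entered that choice, although they are compared in the same contrasts. No filter on low values was used, and all 7 members were tested with the other genes.

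The arrays formed 13 groups of 2, all of C57BL/6 male lines. The AGP14 groups were Prdm14 knockout cells carrying the pPyCAG-AGP14 transgene, which expresses an Avitag-EGFP-Prdm14 fusion from the CAG promoter, grown in 2i, in serum and in serum without LIF. The KO groups were Prdm14 knockout cells in 2i, serum, serum without LIF and serum with the MEK inhibitor PD0325901 (MEKi). The WT groups were wild-type embryonic stem cells in the same 4 media. The EpiLC groups were epiblast-like cells of day 3 and day 2 from a Prdm14(+/+) line with the Blimp1-mVenus and Stella-ECFP reporters (BVSC), which the wild-type stem cells are not labelled to carry. The 2i medium was N2B27 with PD0325901 at 0.4 uM, the GSK3 inhibitor CHIR99021 at 3 uM and LIF at 1000 units per ml. Serum medium held 20% FBS and the same LIF, was given for 2 days, and received PD0325901 at 0.4 uM in the MEKi groups. Stem cells grew on mouse embryonic fibroblasts. The sources used here do not say how many clones stand for a genotype or whether the arrays of a group are separate cultures. The p-values therefore rest on array-to-array spread alone, and that spread may be technical.

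Schlafen proteins take their name from the German word for sleeping, because the first members slowed the growth of T cells. The short members Slfn1 and Slfn2 and the intermediate members Slfn3 and Slfn4 share an N-terminal Schlafen core. The long members Slfn5, Slfn8 and Slfn9 add a helicase-like C-terminal region. Many members are induced by type I interferon, through promoter elements called interferon-stimulated response elements (ISRE), and are best known from lymphocytes and macrophages. Human long members bind or cut tRNA and act in the response to viruses and to DNA damage.

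The bases before the starts of Slfn8, Slfn9 and Slfn5 are shown because these were the members that held the ISRE core, and because Slfn8 and Slfn9 were the pair that differed most between genotypes. Sequences are from RefSeq on GRCm38.p6 and run 5′ to 3′ on the strand of the gene. Capitals mark the ISRE core, read as GAAA, any 2 bases, GAAA on either strand. Slfn8 is at chr11:83020811-83021060 on the minus strand, Slfn9 at chr11:82991831-82992080 on the minus strand and Slfn5 at chr11:82951852-82952101 on the plus strand.
Slfn8: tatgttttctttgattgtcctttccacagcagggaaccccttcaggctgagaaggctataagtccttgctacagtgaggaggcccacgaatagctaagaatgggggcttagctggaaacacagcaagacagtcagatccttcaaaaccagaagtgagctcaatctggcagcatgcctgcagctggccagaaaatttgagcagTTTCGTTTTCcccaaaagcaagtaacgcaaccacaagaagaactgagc
Slfn9: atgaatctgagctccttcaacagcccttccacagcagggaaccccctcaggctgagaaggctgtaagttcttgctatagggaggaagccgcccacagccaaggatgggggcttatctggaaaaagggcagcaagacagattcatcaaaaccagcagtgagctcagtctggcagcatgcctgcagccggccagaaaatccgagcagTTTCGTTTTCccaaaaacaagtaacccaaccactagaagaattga
Slfn5: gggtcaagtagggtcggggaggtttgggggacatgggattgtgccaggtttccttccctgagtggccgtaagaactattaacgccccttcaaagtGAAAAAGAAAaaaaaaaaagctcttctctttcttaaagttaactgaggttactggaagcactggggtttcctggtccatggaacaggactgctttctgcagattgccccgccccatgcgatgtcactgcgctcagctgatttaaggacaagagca
The Slfn8 and Slfn9 stretches are near copies, with 206 of 242 aligned bases identical (85.1%) and 16 gaps, and both hold the same 10 bases of the core, beginning at position -48 in Slfn8 and -45 in Slfn9 relative to the start that ends the printed window. RefSeq lists a further Slfn8 start, from which the core begins at -136. The other pairs of the cluster had 55.6% to 67.6% of aligned bases identical. The core begins at -155 in Slfn5, and these letters are not in the 250 bases before Slfn1, Slfn2, Slfn3 or Slfn4. Of 32851 RefSeq promoter windows of the same length, 978 (2.98%) hold the core. The STAT core, TTC, any 3 bases, GAA, was in none of the members' windows and in 7.02% of all. These matches describe letters only.

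The checks on the labels covered the targeted gene, the cell types and the labelling controls. Prdm14, the targeted gene, averaged 9.21, 11.28 and 9.18 in AGP14, KO and WT arrays in 2i, 6.38, 5.94 and 6.63 in serum, and 4.99, 3.63 and 4.73 without LIF. With MEKi it averaged 10.74 in KO and 9.26 in WT arrays, and it was 2.91 on day 3 and 3.07 on day 2 of EpiLC. Its probe set was therefore not lower in the arrays labelled knockout in 2i and with MEKi. The sources used here do not place the deletion relative to the probe set, so genotype rests on the labels and "knockout" below means the arrays labelled so. Pou5f1, a pluripotency factor, lay between 12.17 and 12.74 on all arrays, and Fgf5, an epiblast-like marker, between 8.22 and 9.70 in EpiLC, though also up to 8.84 in AGP14, 10.44 in KO and 10.03 in WT arrays, so Fgf5 alone does not set EpiLC apart. The 9 probe sets of the labelling spike-ins split the arrays into 12 at 11.52 to 11.93 (EpiLC, and KO and WT in 2i and MEKi) and 14 at 7.99 to 8.48 (all serum, all without LIF, and AGP14 in 2i). Knockout against wild type stays within one of these sets in every medium, whereas AGP14 against the others in 2i, KO and WT serum against 2i, and MEKi against serum run across them.

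Slfn8 (probe set 1451655_at; gene at chr11:83002125-83020810, minus strand), a long Schlafen whose transgenic expression is known to slow the growth of mouse T cells, had a clear signal in wild-type cells and in no other group. All levels are log2 signals as deposited, with base 2 inferred. In 2i, Slfn8 lay at 1.80 and 1.75 in AGP14 arrays and at 1.91 and 2.48 in KO arrays, against 8.73 and 8.39 in WT arrays. In serum the values were 2.03 and 1.69 in AGP14, 2.20 and 2.55 in KO, and 6.33 and 6.60 in WT. Without LIF they were 1.82 and 1.78 in AGP14, 0.95 and 1.34 in KO, and 5.76 and 5.98 in WT. No AGP14 or KO array came near a WT array in any of these media. With MEKi, Slfn8 was at 1.42 and 2.19 in KO and at 7.28 and 6.80 in WT. In EpiLC it was at 1.87 and 2.28 on day 3 and at 2.26 and 2.74 on day 2. All 18 of these other arrays lay below the lower quartile of their own array, which was 3.20 to 3.28, and the gap between the highest of them and the lowest WT array was 3.02.

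**Figure D1:**
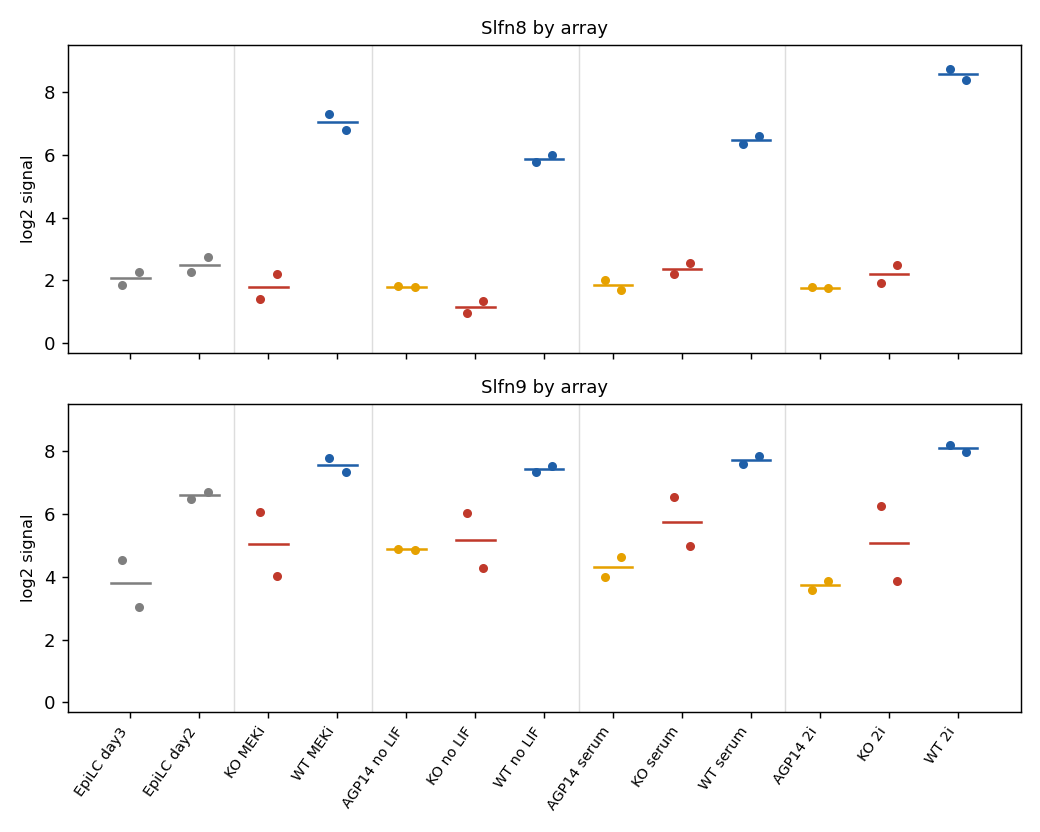
Log2 signal of Slfn8 (top) and Slfn9 (bottom) on each of 26 arrays, by group; points are arrays and lines are group means. Slfn8 sits at 5.76 or more on every WT array and at 2.74 or less on every other array, while Slfn9 in KO splits into a higher and a lower array in each medium.

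The knockout minus wild-type differences of Slfn8 were -6.37 in 2i, -4.09 in serum, -4.73 without LIF and -5.24 with MEKi (SE 0.33, n = 2 each). They are taken against KO values below the lower quartile of the array, so their exact size is uncertain. The AGP14 minus wild-type differences were -6.79, -4.61 and -4.07 in 2i, serum and serum without LIF, where the WT arrays are shared with the knockout comparisons. AGP14 minus knockout came to -0.42, -0.52 and 0.66, so the transgene arrays lay at the low level of the knockout and not at that of wild type. In bulk RNA, fewer cells with the transcript and less transcript per cell cannot be told apart.

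Other cell types gave values beside these differences. The 14 measured of 16 lymphoid and myeloid markers summed to a log2 level of 9.28 to 9.95 in KO and 9.40 to 9.93 in WT. Between these genotypes limma called 0 in each medium, with 1 or 2 at an unadjusted p under 0.05. Of all genes 2.22% to 5.52% were lower and 1.39% to 3.63% higher, so 0 of 14 says little about these markers. Of these markers 1 was at 0 on at least 1 array. Ptprc, which marks blood cells, lay at 1.17 to 3.37 in KO and 1.70 to 3.23 in WT, and the T cell gene Cd3e at 1.43 to 3.31 in KO and 1.59 to 3.55 in WT. Csf1r, a macrophage receptor of the same list, lay above the array medians, at 6.39 to 6.82 in KO and 6.30 to 6.98 in WT. The 26 measured of 27 feeder fibroblast markers summed in 2i to 15.12 and 15.18 in KO and 15.32 and 15.36 in WT. In 2i limma called 0 of them, with 4 at an unadjusted p under 0.05. There 3.63% of all genes were higher and 5.52% lower, so 0 of 26 says little. None of the feeder markers was at 0 on any array. In serum 1 was higher (3.85%) and 2 lower (7.69%) in knockout, against 1.39% and 2.79% of all genes. Without LIF 3 were higher (11.5%) and 1 lower (3.85%), against 1.75% and 2.44%. With MEKi 0 were higher and 1 lower (3.85%), against 1.86% and 2.22%. The part of these markers in the Slfn8 differences was not tested.

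Within wild type, a comparison that the choice of the family did not use, Slfn8 was lower in serum than in 2i. It fell by 2.10 in serum relative to 2i (SE 0.33, adjusted p = 5.21e-05, limma with Benjamini-Hochberg over all genes), with 6.33 and 6.60 in serum against 8.73 and 8.39 in 2i. In this comparison 19.4% of all genes were called lower. The call held under the 9 alternatives that could test it, with adjusted p between 3.88e-05 and 0.00301. Relative to serum, removal of LIF gave -0.60 (limma adjusted p = 0.458) and addition of MEKi gave 0.58 (limma adjusted p = 0.225). Neither passed. The arrays of these neighbours did not overlap, which says little on its own with 2 arrays per group. By mean level the order was WT in 2i (8.56), MEKi (7.04), serum (6.46) and serum without LIF (5.87), followed by EpiLC day 2 (2.50). Below that, each pair of neighbours down to AGP14 in 2i overlapped, and KO without LIF (1.14) lay alone at the end. The serum and 2i arrays differ in their labelling spike-ins. Feeder markers also moved, with 20 of 26 lower and 1 higher in serum, and summed to 13.51 and 13.54 in serum against 15.32 and 15.36 in 2i. In the same comparison 9 of 9 epiblast-like markers were higher (list median 3.39), and 8 of 12 embryonic stem cell markers were lower and 1 higher (median -0.50). The part of any of these in the Slfn8 difference was not tested.

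Slfn9, the long member next to Slfn8 (probe set 1436472_at, gene at chr11:82974316-82991830, minus strand), was also highest in wild type, but its other arrays spanned 3.05 to 6.69. The lowest of these, EpiLC day 3 array 2, lay below the lower quartile of the array. Whether the low values are above background was not tested. Slfn9 ranged from 3.59 to 4.88 over the 6 AGP14 arrays (median 4.30), from 3.85 to 6.53 over the 8 KO arrays (median 5.50) and from 7.32 to 8.19 over the 8 WT arrays (median 7.68). In 2i the values were 3.59 and 3.87 in AGP14, 6.26 and 3.85 in KO, and 8.19 and 7.98 in WT. In serum they were 3.98 and 4.62 in AGP14, 6.53 and 4.97 in KO, and 7.58 and 7.83 in WT. Every AGP14 and every KO array lay below every WT array, here as in the other media. Without LIF they were 4.88 and 4.86 in AGP14, 6.04 and 4.28 in KO, and 7.34 and 7.53 in WT. With MEKi they were 6.07 and 4.03 in KO and 7.78 and 7.32 in WT. By mean level the 4 WT groups came first, from 2i (8.09) to serum without LIF (7.43), and serum, MEKi and serum without LIF overlapped as neighbours. EpiLC day 2 (6.58) followed with no overlap, then the 4 KO groups (5.75 to 5.05), whose neighbours overlapped, and AGP14 in 2i (3.73) came last.

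Relative to wild type, Slfn9 fell in all 3 media tested with AGP14, with differences of -4.36 in 2i (SE 0.73, adjusted p = 0.000255), -3.40 in serum (adjusted p = 0.0107) and -2.57 in the medium lacking LIF (adjusted p = 0.0303), all by limma. These were the only 3 calls among 18 tests of the 6 members in AGP14 against wild type, where 18.2%, 4.61% and 4.33% of all genes were lower. The serum call was lost without either AGP14 array in serum (adjusted p = 0.0859 and 0.0565) or without WT array 1 (0.0857), and the call without LIF was lost without any 1 of its 4 arrays (0.095 to 0.154). Knockout against wild type gave 1 call among 24 tests, Slfn9 in 2i, which fell by 3.03 (SE 0.73, adjusted p = 0.0122), where 5.52% of all genes were lower. The call rested on KO array 2, without which the difference was -1.83 (adjusted p = 0.194), and on WT array 1 (adjusted p = 0.0906 without it). In serum, without LIF and with MEKi the differences were -1.96, -2.28 and -2.50, with limma adjusted p of 0.147, 0.0886 and 0.0621, and 2.79%, 2.44% and 2.22% of all genes were lower. Without KO array 1 the MEKi comparison passed (adjusted p = 0.0282).

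With all arrays, limma did not separate AGP14 from knockout for Slfn9. The AGP14 minus knockout differences were -1.33, -1.45 and -0.29 in 2i, serum and without LIF. None passed (limma adjusted p from 0.212 to 0.866), although the arrays did not overlap in serum. In 2i KO array 1 (6.26) lay above both AGP14 arrays (3.59 and 3.87) and KO array 2 (3.85) between them. Without LIF KO array 1 (6.04) lay above both AGP14 arrays (4.88 and 4.86) and KO array 2 (4.28) below them. Within wild type, Slfn9 differed by -0.38 for serum against 2i, and by -0.27 without LIF and -0.16 with MEKi against serum. None passed (SE 0.73, limma adjusted p = 0.745, 0.926 and 0.911), although the arrays did not overlap in the first 2 comparisons. With 2 arrays per group, a lack of overlap says little on its own. The SE is shared by all groups, whose SD was 0.13 to 0.33 in WT and up to 1.70 in KO. Shifts of this size in wild type could therefore hardly pass, and no lack of a medium effect on Slfn9 is shown. The difference between Slfn8 and Slfn9 in this medium effect was not tested.

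A further Slfn9 probe set, 1458803_at, did not show the genotype pattern. It lay at 4.4 to 5.23 in AGP14, 3.83 to 4.93 in KO and 3.68 to 4.77 in WT, and the 2i knockout difference at that probe set was -0.28 (adjusted p = 0.743). The brighter probe set carries every Slfn9 statement here. Slfn8 and Slfn9 are close paralogs, and how far their probe sets read each other's transcript was not tested. In 6 arrays, KO array 1 of each medium and both EpiLC arrays of day 2, Slfn9 read 6.04 to 6.69 while Slfn8 read 0.95 to 2.74.

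**Figure D2:**
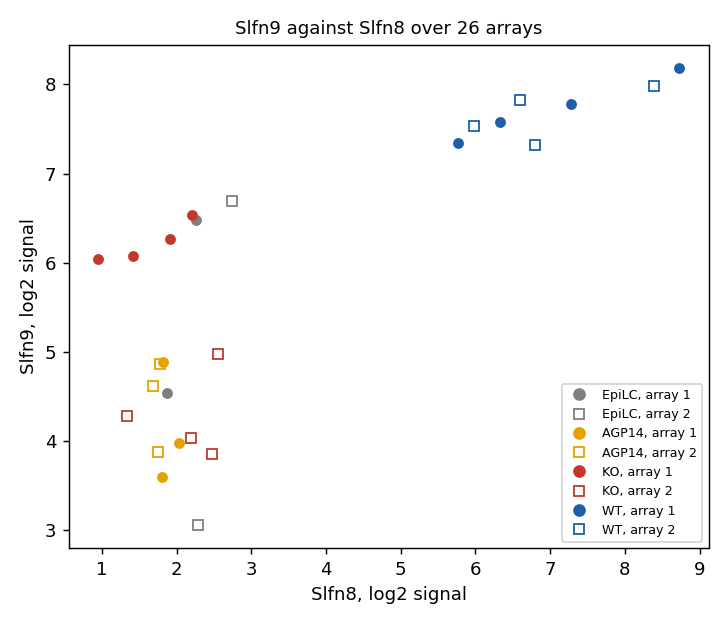
Log2 signal of Slfn9 (y axis) against Slfn8 (x axis) on 26 arrays; filled circles are array 1 and open squares array 2 of each group. WT arrays stand apart at the upper right (Slfn8 5.76 to 8.73), and the other arrays spread over 3.05 to 6.69 in Slfn9 at Slfn8 levels of 2.74 or less.

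The spread of Slfn9 within knockout followed the replicate number in the labels. Array 1 exceeded array 2 by 2.41 in 2i, 1.56 in serum, 1.76 without LIF and 2.04 with MEKi. A gap of at least 1.5 in all 4 media was found in 11 of 18193 genes (0.0605%), Slfn9 among them, as seen after the values were known. In WT the same gaps for Slfn9 were 0.21, -0.25, -0.19 and 0.46. Slfn8 went slightly the other way in KO, with gaps of -0.57, -0.35, -0.39 and -0.77. The sources used here do not say what the replicate number stands for.

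Slfn1, Slfn3, Slfn4 and Slfn5 gave signals in the lower part of the scale on all arrays, and Slfn2 lay near the array medians of 4.86 to 5.01. The ranges of all these members overlapped between genotypes. Slfn2 (chr11:83065112-83070678), which is needed for the quiescence of mouse T cells and monocytes, lay at 5.05 to 5.50 in AGP14 (median 5.36), 4.86 to 5.42 in KO (median 5.19) and 4.85 to 5.47 in WT (median 5.10). Slfn5 (chr11:82951349-82964850), a long member induced by interferon, lay at 3.47 to 4.26 in AGP14 (median 3.77), 3.25 to 4.02 in KO (median 3.77) and 2.94 to 4.29 in WT (median 3.71). For both genes the genotypes spanned nearly the same levels.

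Slfn1 (chr11:83116820-83122670), the founding member described in thymocytes, lay at 2.02 to 3.10 in AGP14, 0.39 to 3.53 in KO and 1.95 to 3.64 in WT. Slfn4 (chr11:83175172-83190216), known from mouse macrophages and other myeloid cells, lay at 1.37 to 3.66 in AGP14, 2.04 to 3.98 in KO and 2.88 to 3.92 in WT. Slfn3 (chr11:83191330-83215154), studied in the differentiation of gut epithelium, lay at 0.41 to 3.02 in AGP14, 1.09 to 2.40 in KO and 0.54 to 2.78 in WT. These 3 genes lay below the lower quartile of the array on some arrays of every genotype, and Slfn5 did on at least 1 WT array, whereas Slfn2 stayed above it on all 26.

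**Figure D3:**
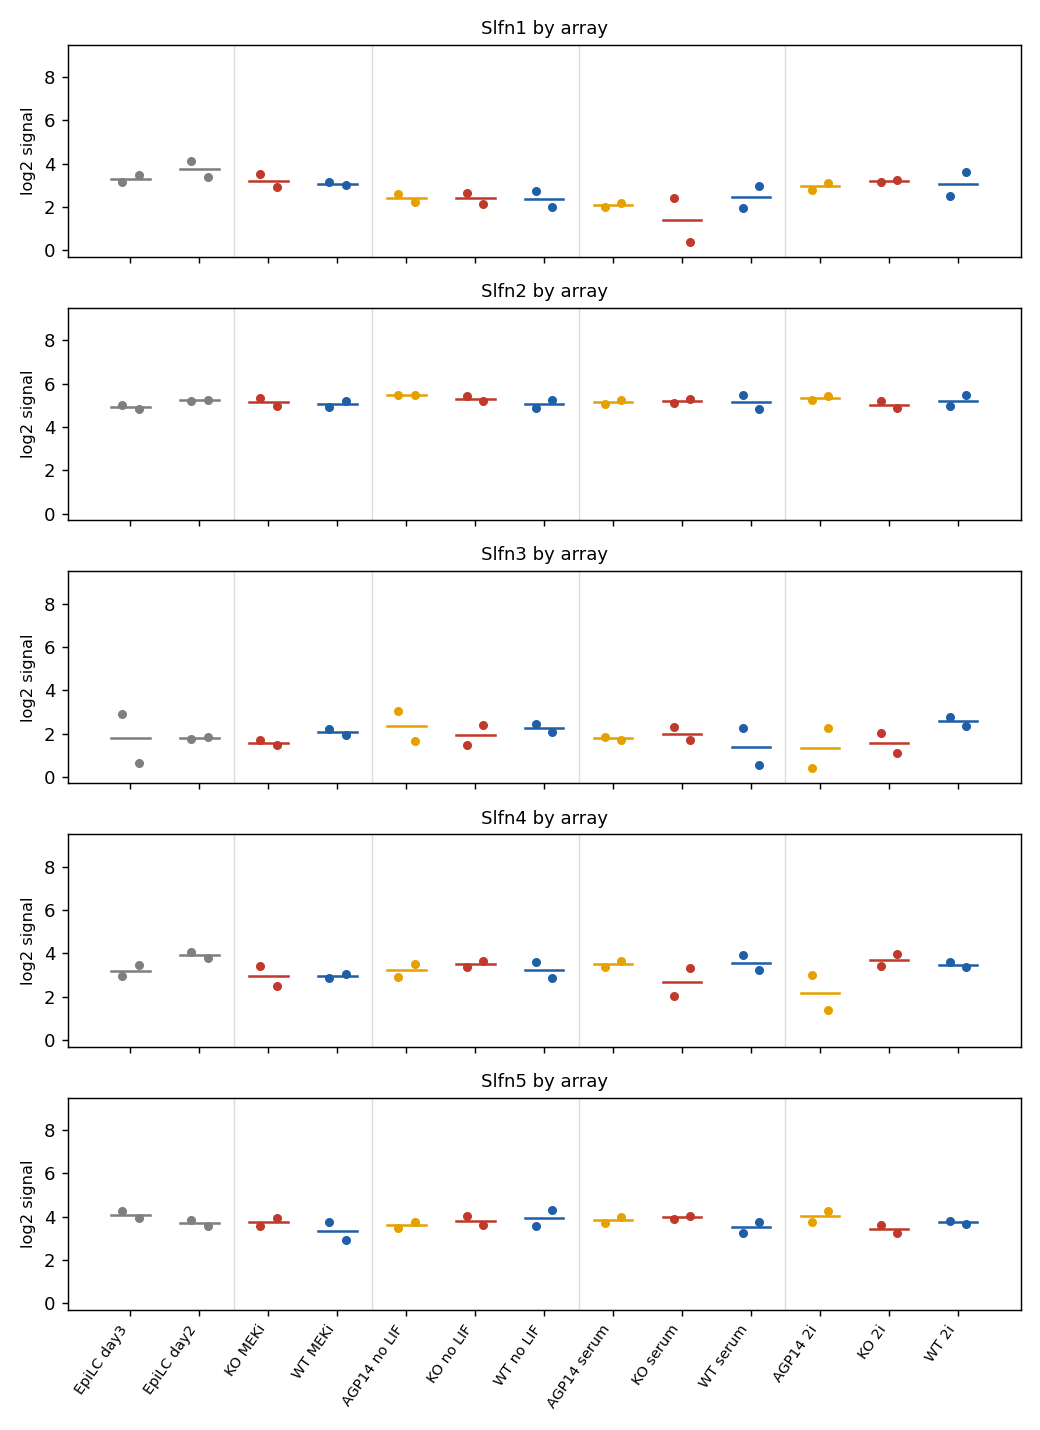
Log2 signal of Slfn1, Slfn2, Slfn3, Slfn4 and Slfn5 on each of 26 arrays, by group, on the same scale as the plot of Slfn8 and Slfn9; points are arrays and lines are group means. No array exceeds 5.50, and the lowest, 0.39, is Slfn1 on KO array 2 in serum.

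None of these 5 genes was called between knockout and wild type. Over 20 limma tests the differences ran from -1.06 (Slfn1 in serum) to 0.60 (Slfn3 in serum), the lowest adjusted p was 0.325, and 0 reached an unadjusted p under 0.05. Of all genes 2.22% to 5.52% were lower and 1.39% to 3.63% higher in these comparisons, so 0 of 20 says little about the members. For AGP14 against wild type, 15 tests gave -1.30 to 0.43 with 0 called (lowest adjusted p = 0.0737) and 1 at an unadjusted p under 0.05, Slfn4 in 2i. There 4.33% to 18.2% of all genes were lower and 2.35% to 7.17% higher. Over the 6 members other than Slfn8, the median knockout minus wild-type difference was -0.24, -0.42, -0.04 and 0.03 in 2i, serum, without LIF and with MEKi, against -0.03, -0.02, -0.01 and -0.01 over all genes. The low signal of Slfn1, Slfn3, Slfn4 and Slfn5 leaves little room in which a fall could be measured.

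**Figure D4:**
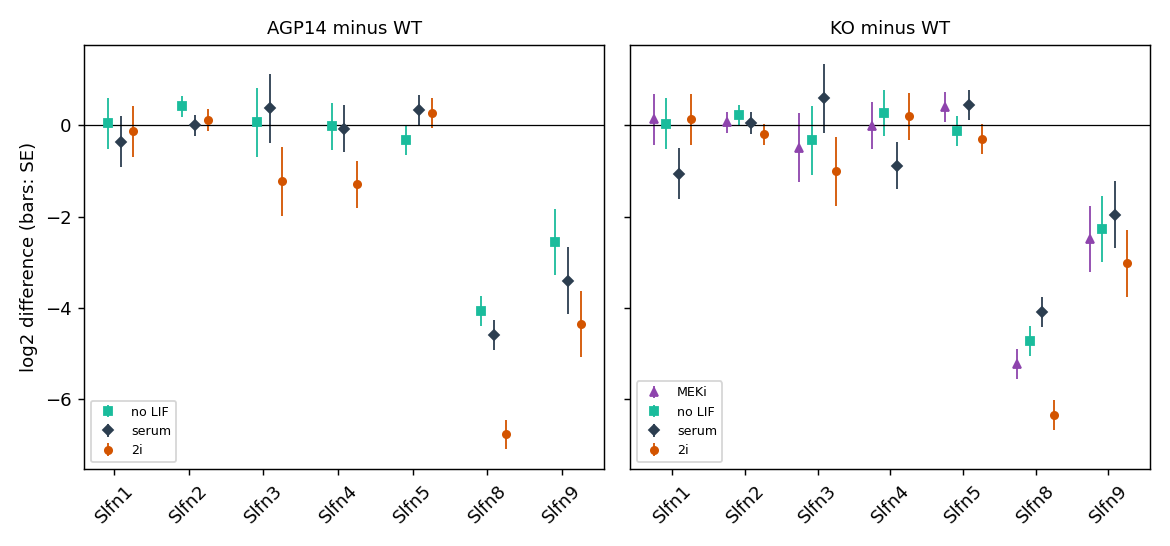
Log2 difference of each member, AGP14 minus WT (left) and KO minus WT (right), with 1 symbol per medium and bars of 1 SE from the fit. Slfn8 lies between -6.79 and -4.07 and Slfn9 between -4.36 and -1.96, while the 5 other members lie between -1.30 and 0.60.

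Slfn4 gave the single call between AGP14 and knockout. In 2i it lay at 3.01 and 1.37 in AGP14 against 3.40 and 3.98 in KO, a difference of -1.5 (SE 0.51, limma adjusted p = 0.0401), where 16.0% of all genes were lower. The call was lost without AGP14 array 2 (-0.68, adjusted p = 0.47), KO array 1 (0.0585) or KO array 2 (0.226). The comparison runs across the labelling spike-in sets, and 10 of 26 feeder markers were lower and 0 higher in it; the part of either was not tested. In serum and without LIF, where 10.5% and 13.3% of all genes were called, Slfn4 differed by 0.82 and -0.29 and did not pass (adjusted p = 0.379 and 0.798).

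Slfn1 gave the other 2 medium calls, both within knockout. It lay at 2.42 and 0.39 in KO serum arrays against 3.18 and 3.26 in KO 2i arrays, a fall of 1.81 (SE 0.56, limma adjusted p = 0.0154), where 20.0% of all genes were lower. KO arrays with MEKi lay at 3.53 and 2.91, which was 1.81 above serum (adjusted p = 0.0229), where 15.0% of all genes were higher. Both calls rest on KO serum array 2, without which the differences were -0.80 and 0.80 (adjusted p = 0.32 and 0.371). The fall was also lost without either KO array in 2i (0.0566 and 0.0693) and the rise without KO MEKi array 1 (0.147). At the further Slfn1 probe set, 1418612_at, they were 0.44 and -1.23, against the direction of the first. Over the 8 medium comparisons, 51 tests of the members gave 1 higher and 2 lower, Slfn8 in wild type included. Of all genes, 15.2% were higher and 19.4% lower in wild-type serum against 2i, and 14.3% and 11.2% with MEKi against serum. The 3 calls are therefore not read as a result about the family. Removal of LIF from wild-type cells, which called 1.5% of all genes, called 0 of the 7 members by limma, with 0 at an unadjusted p under 0.05.

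The genotype difference of the 6 members did not differ between media past the threshold. The 18 interaction tests gave 0 calls in limma and 0 at an unadjusted p under 0.05, while 2.97% (serum against 2i), 0.0% (without LIF against serum) and 0.231% (MEKi against serum) of all genes were called. For Slfn9 the interaction was 1.08, -0.32 and -0.55 (SE 1.03).

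Slfn8 was about as low in EpiLC arrays as in knockout arrays, in a line that is Prdm14(+/+) by its label. The Prdm14 signal was also low in EpiLC, at 2.91 on day 3 and 3.07 on day 2, against 9.18 in wild type in 2i. The part of Prdm14 in the low Slfn8 of EpiLC was not tested. Day 2 EpiLC minus wild type in 2i was -6.06 for Slfn8. Slfn9 lay at 4.54 and 3.05 on day 3 and at 6.48 and 6.69 on day 2, against 8.19 and 7.98 in wild type in 2i. The day 2 difference was -1.5, which did not pass (limma adjusted p = 0.118), in a comparison that called 38.3% of all genes. Slfn9 then fell by 2.79 on day 3 relative to day 2 (SE 0.73, adjusted p = 0.0108), where 9.69% of all genes were lower. That call was lost without day 3 array 2 (adjusted p = 0.16), day 2 array 1 (0.0527) or day 2 array 2 (0.0739). The 5 other members gave 0 calls in 10 EpiLC tests, with 0 at an unadjusted p under 0.05. EpiLC carried fewer feeder markers, with 22 of 26 lower and 2 higher than wild type in 2i on day 2, and the line, its reporters and the cell state cannot be told apart.

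Along the chromosome the low values were those of Slfn8 and Slfn9. The cluster spans 273 kb (chr11:82942341-83215154, GRCm38.p6) and 9 of its genes had a single-symbol probe set. Slfn10-ps, a pseudogene next to Slfn8, averaged 2.32, 2.21 and 2.37 in AGP14 in 2i, serum and without LIF, against 3.63, 3.46 and 3.70 in WT. The differences of -1.31, -1.26 and -1.33 did not pass (limma adjusted p = 0.145, 0.251 and 0.203), and those of knockout, -0.80, -0.17, -0.80 and -1.05, did not pass either. Slfn5os, antisense to Slfn5, had a median of 0.00 in AGP14, KO and WT. Slfn5, on the far side of Slfn9, and Slfn2, beyond Slfn10-ps, gave no call between genotypes, as given above.

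**Figure D5:**
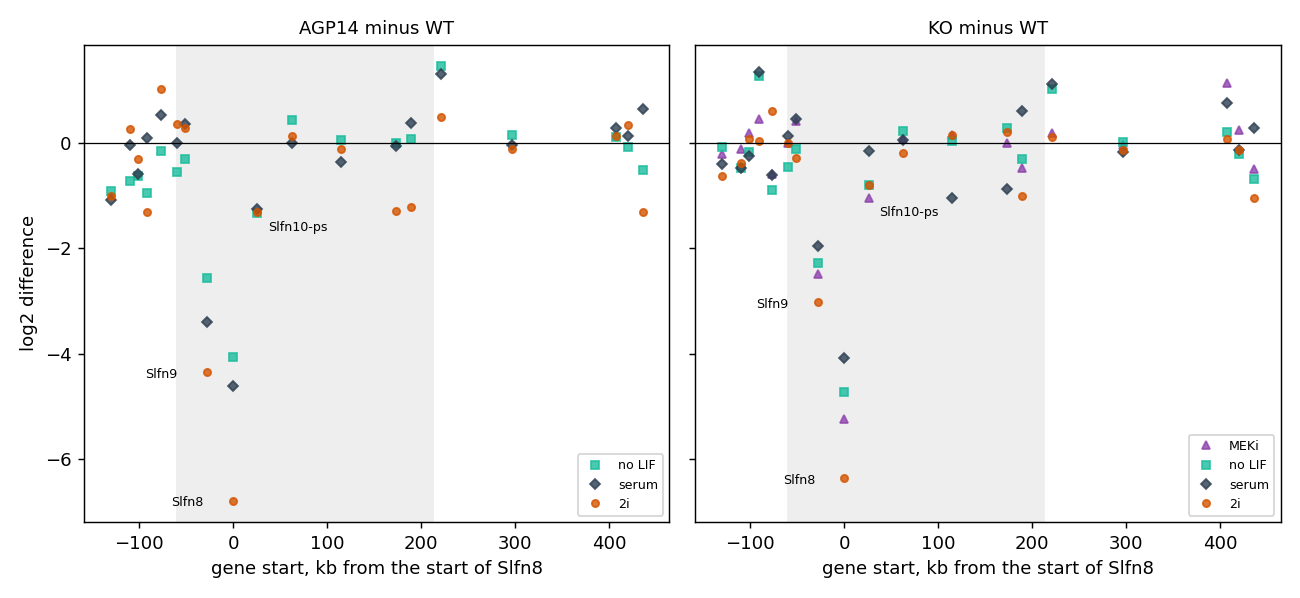
Log2 difference of AGP14 minus WT (left) and KO minus WT (right) for the genes of the Schlafen cluster (grey) and 5 measured genes on each side, by distance of each gene's lower coordinate from that of Slfn8. Slfn8 and Slfn9 hold the low values, and the flanking genes lie between -1.31 and 1.45.

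The flanking genes included Fndc8, Nle1, Unc45b and Unc45bos on the Slfn5 side and AI662270, Ap2b1, Rasl10b, Gas2l2 and 1700020L24Rik on the Slfn3 side. Of the 10 flanking genes, 9 were called in no knockout comparison, the exception being Rasl10b with MEKi (1.13, limma adjusted p = 0.0335). Over all genes 2.22% to 5.52% were lower and 1.39% to 3.63% higher in these comparisons. In AGP14 against wild type 8 of 10 were called in no medium, and both exceptions were called lower, Nle1, a ribosome assembly gene, in serum and without LIF (-0.60 and -0.64, limma adjusted p = 0.0291 and 0.0141). Over all genes 18.2%, 4.61% and 4.33% were lower in AGP14 in 2i, serum and without LIF, and 7.17%, 2.35% and 6.34% were higher. Of the 36 genes within 1 Mb of the cluster, 0.0% to 2.78% were called in each knockout comparison. Within 5 Mb 153 genes were measured, and 14 were lower and 0 higher in 2i, 12 and 1 in serum, 14 and 1 without LIF, and 3 and 2 with MEKi, knockout against wild type. The lower shares of 9.15%, 7.84%, 9.15% and 1.96% stood beside 5.52%, 2.79%, 2.44% and 2.22% of all genes, as a description with no test.

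Slfn8 and Slfn9 were among few genes with this separation of arrays. Every KO array lay below every WT array for 74 genes (0.407% of all), and every AGP14 array did for 299 (1.64%). Every AGP14, KO and EpiLC array lay below every WT array for 12 genes (0.066%), with the widest gaps for Slfn8 (3.02) and Slfn9 (0.63). The other 10, led by Veph1 (0.55), Gm21283 (0.51) and Mks1 (0.35), had gaps of 0.02 or more. Slfn8 is among the 12 by the choice of the family. Of the 12, 7 are on chromosome 11, and 5 of the other 10 are when the Schlafen genes are set aside. Chromosome 11 holds 8.0% of the tested genes with a known chromosome. These genes were looked up after their values were seen, and no test is given.

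By Pearson correlation with Slfn8 over the 26 arrays, the nearest genes were Mks1 (0.904), Zscan5b (0.851), Ash2l (0.846), Map2k3 (0.831) and Iqce (0.829). Mks1, a ciliary transition zone gene at chr11:87853182-87863803, lay at 7.64 to 8.37 in WT and at 6.38 to 7.29 on the other arrays. Over the 13 group means they were Mks1 (0.930), Mrpl45 (0.926), Ppp1r13b (0.891), Ube2z (0.887) and Veph1 (0.886). Slfn9 correlated at 0.794 over arrays, in place 12 of all genes, and at 0.884 over group means. The other members lay between -0.26 and 0.21 over arrays. These values follow the split between wild type and the rest, and the points share lines, media and labelling spike-in sets.

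Among interferon-stimulated genes, the class to which Schlafen genes belong, the share lower in knockout stood furthest above that of all genes in serum and without LIF. Of 40 measured of 43, 2 rose and 2 fell in 2i (5.0% each), against 3.63% and 5.52% of all genes. In serum 0 rose and 5 fell (12.5%), against 1.39% and 2.79% of all genes, with a list median of -0.28 and -0.02 over all genes. Without LIF 0 rose and 6 fell (15.0%), against 1.75% and 2.44%, with medians of -0.34 and -0.01. With MEKi 1 rose and 1 fell (2.5% each), against 1.86% and 2.22%. In 2i, serum, without LIF and with MEKi, 7, 13, 15 and 4 of the 40 had an unadjusted limma p under 0.05. The media with most of these falls were those in which Slfn8 was lowest in wild type, whereas Slfn8 differed most in 2i. A difference between media in these counts was not tested. Feeder markers, given above, had 17 of 26 at an unadjusted p under 0.05 without LIF, and embryonic stem cell markers had 3 of 12 lower in serum (25%) and 4 of 12 lower without LIF (33.3%), with 0 higher in each. The part of either list in the falls was not tested.

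Trim25, a ubiquitin ligase that acts on RIG-I, fell in all 4 knockout comparisons, by 0.37, 0.68, 0.71 and 0.43 in 2i, serum, without LIF and with MEKi (SE 0.08, limma adjusted p = 0.00686, 0.000125, 6.22e-05 and 0.00437). Ddx58, which encodes RIG-I, rose by 0.57 in 2i (adjusted p = 0.0208) and fell by 0.76 in serum and 1.08 without LIF (adjusted p = 0.00734 and 0.000359). Ifi35 fell by 1.21 in serum and 1.67 without LIF (adjusted p = 0.00814 and 0.000537). Ifitm1, a membrane protein that blocks virus entry, fell by 0.48 and 0.90 in the same media (adjusted p = 0.0425 and 0.000448). Bst2, which tethers virus particles, went the other way and rose by 0.67 in 2i and 0.83 with MEKi (adjusted p = 0.00171 and 0.000534). None of these differences came near the size of that of Slfn8.

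In AGP14 against wild type more of the list fell. In 2i 1 rose and 19 fell (47.5%), against 7.17% and 18.2% of all genes. In serum 1 rose and 14 fell (35.0%), against 2.35% and 4.61%. Without LIF 4 rose and 13 fell (32.5%), against 6.34% and 4.33%. Beside these counts, feeder markers had 0 of 26 higher and 12 lower in 2i, 7 higher and 1 lower in serum, and 17 higher and 1 lower without LIF, and the 2i comparison runs across the spike-in sets. Embryonic stem cell markers had 0 of 12 higher and 2 lower in 2i, 3 higher and 1 lower in serum, and 10 higher and 1 lower without LIF. The part of any of these was not tested.

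By medium, wild-type cells had 6 of the 40 higher and 13 lower in serum than in 2i (32.5% lower), against 15.2% and 19.4% of all genes. Gbp2, an interferon-induced GTPase, rose by 3.37 (limma adjusted p = 0.000276) and B2m, the light chain of MHC class I, fell by 3.30 (adjusted p = 4.51e-10). With MEKi relative to serum 9 rose and 8 fell, against 14.3% and 11.2% of all genes, and the immunoproteasome gene Psmb8 fell by 3.29 (adjusted p = 0.000306). Slfn8 was thus lower in serum in wild type together with B2m and while Gbp2 was higher. Both comparisons run across the labelling spike-in sets. Of 26 feeder markers, 1 was higher and 20 lower in wild-type serum than in 2i. With MEKi relative to serum 19 were higher and 2 lower. The part of the spike-in sets or of feeder cells in these values was not tested. Of 12 interferon receptor and signalling genes, knockout against wild type, 1 rose and 0 fell in 2i (8.33% higher, against 3.63% of all genes) and 0 rose and 2 fell in serum (16.7% lower, against 2.79%). Without LIF 0 rose and 1 fell (8.33% lower, against 2.44%), and with MEKi 1 rose and 1 fell (8.33% each, against 1.86% and 2.22%).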

How the data were processed

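The authors deposited 1 value per probe set and array, 45100 probe sets on 26 arrays, on a log2 scale. Base 2 was inferred from the highest value, 13.89; the sources used here do not state the base, the background correction or the normalization. Array medians of 4.86 to 5.01 show a common scale. Per the labels, RNA was isolated on RNeasy Micro columns and labelled by the Affymetrix one-cycle protocol. The number of arrays limits the precision.

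Of the probe sets, 34944 had 1 gene symbol in the platform annotation; 932 with several symbols were not used, among them 1 shared by Slfn3 and Slfn4. Each of 18193 genes took its probe set of highest mean. Tests used limma 3.58.1 (R 4.3.3), with 1 coefficient per group over all arrays, 13 residual and 5.05 prior degrees of freedom, an intensity trend, two-sided tests, Benjamini-Hochberg adjustment over all genes, and a call at an adjusted p under 0.05. "Rose" and "fell" mean called. The fit was tested on simulated data. Tables, motif searches and alignments used Python 3.11.15, pandas 2.3.3, numpy 2.4.6 and Biopython 1.88, and plots matplotlib 3.10.9.

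The members, gene lists and tests were chosen with earlier results of these data known. Named genes were the members, Prdm14, the 5 nearest to Slfn8 by correlation over arrays and over group means, 5 flanking genes a side, and of the interferon list the 5 of smallest p between knockout and wild type and the 3 largest by medium; others are named where a value is given, and 1 flanking gene is not reported here. Replicate numbers were not used to pair samples. Alternatives were quantile normalization, the replicate number as a block, no intensity trend, dim genes left out, the mean of probe sets, the compared arrays alone, each array left out and, added after seeing the data, further probe sets.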

Additional observations from a re-analysis of the deposited data

Results flagged for a closer look

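In 3 cases every array of one genotype moved opposite to every array of another with the same change of medium. Slfn4 differed by 1.32 between serum and 2i in AGP14 and by -0.99 in knockout, a gap of 2.31, and the knockout change runs across the labelling spike-in sets while that of AGP14 does not. Slfn9 differed by 0.57 between serum and 2i in AGP14 and by -0.38 in wild type, a gap of 0.95, with the wild-type change across the spike-in sets. Slfn9 differed by 0.57 between serum without LIF and serum in AGP14 and by -0.27 in wild type, a gap of 0.84. Slfn4 was dim in this case, at 3.01 and 1.37 in AGP14 in 2i and at 2.04 and 3.35 in KO in serum. Of these values, only the last lay above the lower quartile of the array. None of these differences between genotypes was tested, and none of the single changes of medium was called. How many of all genes show such opposite moves was not counted, so the 3 cases are not read as a result about the members.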

How the results depend on the processing

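Counts of Schlafen calls are small and rest on single arrays. Knockout against wild type had 1 call, 0 to 3 with 1 array left out, 3 with the replicate number as a block, 0 in a model of the compared arrays alone and 0 with the further Slfn9 probe set. The block added Slfn9 without LIF and with MEKi (adjusted p = 0.0403 and 0.0252); it ended no other Schlafen call. Same-numbered KO and WT arrays of a medium deviated from their group means with correlations of -0.031 to -0.005, while same-numbered arrays of a genotype did so across media with 0.099 to 0.201 in KO, 0.106 to 0.216 in WT and 0.014 to 0.071 in AGP14. AGP14 against knockout had 1, 0 to 1 with 1 array left out, and 0 with dim genes left out (6 tests remain) or the compared arrays alone. AGP14 against wild type had 3, 2 to 4 with 1 array left out, 1 when probe sets were averaged and 0 with the further Slfn9 probe set. Medium comparisons had 3, 2 to 4 with 1 array left out, 0 with dim genes left out (16 tests, Slfn8 dropped), and 1 when probe sets were averaged, with the compared arrays alone or with the further Slfn1 probe set. EpiLC had 1, 0 to 1 with 1 array left out, 2 with the compared arrays alone and 0 with the further Slfn9 probe set. Interactions stayed at 0 under all settings run. With no intensity trend, AGP14 against wild type had 2 calls. Interferon-stimulated genes, knockout against wild type, had 3 higher (2 to 4 with 1 array left out, 0 with the compared arrays alone) and 14 lower (12 to 15, 8 when probe sets were averaged and 1 with the compared arrays alone). By medium they had 30 higher (26 to 34 with 1 array left out) and 46 lower (41 to 56). At the further Slfn9 probe set the knockout difference was 0.00 without LIF and 0.41 with MEKi, that of AGP14 against wild type 0.33 in 2i and 0.40 in serum, and that of EpiLC day 2 0.18, all reversed from the first probe set except the 0.00. At the further Slfn1 probe set the knockout medium differences reversed to 0.44 and -1.23. The cause was not tested. Slfn8 kept its direction under every alternative that could hold it. For knockout, AGP14 and EpiLC against wild type this direction was set by the choice of the family, so its stability is no support. Slfn8 has 1 probe set, so averaging probe sets left its differences unchanged.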
